A study of Gallus gallus with 4 samples.

Results

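Chromosome Z is the larger sex chromosome of birds. Males carry a ZZ pair and females carry one Z and one W, and the expression of Z genes is balanced between the sexes only in part and gene by gene. The regions described are all peaks on Z in the lists for 3 histone marks, 5189 of 95837 peaks in all: 1932 of 45426 for H3K27ac, 1461 of 27344 for H3K4me3 and 1796 of 23067 for H3K27me3. They were chosen by the sequence name alone, and chromosomes 3 and 4, autosomes of like size, were set beside them.

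The lists came from otic-epibranchial progenitors (OEPs), the embryonic ectoderm that gives rise to the inner ear and the epibranchial placodes. Untreated chick embryos with 8 to 9 somites were dissected, the tissue pieces were pooled, and ChIP-seq was carried out with 1 library per mark. The series holds 4 libraries, and the input library was not analysed here. No library has a replicate, so no test between samples was possible. The intervals given below are exact 95% intervals for counting error alone, with each peak taken as an independent event. Peaks were clustered along the chromosomes, so the intervals of densities and density ratios are too narrow. The sex of the pooled embryos is not given in the labels, and the number of copies of Z per cell in the pool and the chromatin of Z cannot be told apart in peak lists. The W chromosome, which only females carry, held 32 H3K27ac, 41 H3K4me3 and 58 H3K27me3 peaks.

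H3K27ac is an acetylation of histone H3 found at active enhancers and promoters. H3K4me3 is a methylation found mostly at promoters, and H3K27me3 is laid down by Polycomb complexes at genes that are held silent. Regions with both H3K4me3 and H3K27me3 are often called bivalent when they lie at promoters of developmental genes. In chicken, Z carries, in the RefSeq table of assembly GRCg7b, DMRT1, which is required for testis development, FGF10, a ligand that acts in inner ear development in mouse, and ISL1, a transcription factor of sensory neurons. The end of the long arm of chicken Z is known for its repeats and for gene families in many copies that are expressed in testis. Because no GalGal6 annotation was used here, the peaks below are given by position and no gene is assigned to them. All positions are on GalGal6.

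Z had fewer H3K27ac and H3K4me3 peaks per Mb than chromosomes 3 and 4, and more H3K27me3 peaks. Each chromosome was measured up to the end of its last peak in any list, which gave 82.5 Mb for Z, 110.8 Mb for chromosome 3 and 91.3 Mb for chromosome 4. H3K27ac had 23.4 peaks per Mb on Z, 36.5 on chromosome 3 and 37.1 on chromosome 4. The density on Z was 0.636 times that of chromosomes 3 and 4 together (0.605 to 0.669). For H3K4me3 the densities were 17.7 peaks per Mb on Z, 24.2 on chromosome 3 and 22.5 on chromosome 4, with a ratio of 0.755 (0.712 to 0.801). H3K27me3 went the other way, with 21.8 peaks per Mb on Z against 18.3 and 17.9, a ratio of 1.203 (1.14 to 1.27). This excess was relative to these autosomes: against all autosomes of 50 Mb or more the ratio was 1.11, and the density over all sequences was 21.7 per Mb. Among the 20 chromosomes with a span of at least 10 Mb, Z was the lowest for H3K27ac and for H3K4me3 and the 4th highest for H3K27me3. The lists therefore held 1.08 H3K27ac peaks per H3K27me3 peak on Z, against 2.001 on chromosome 3 and 2.07 on chromosome 4.

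**Figure D1:**
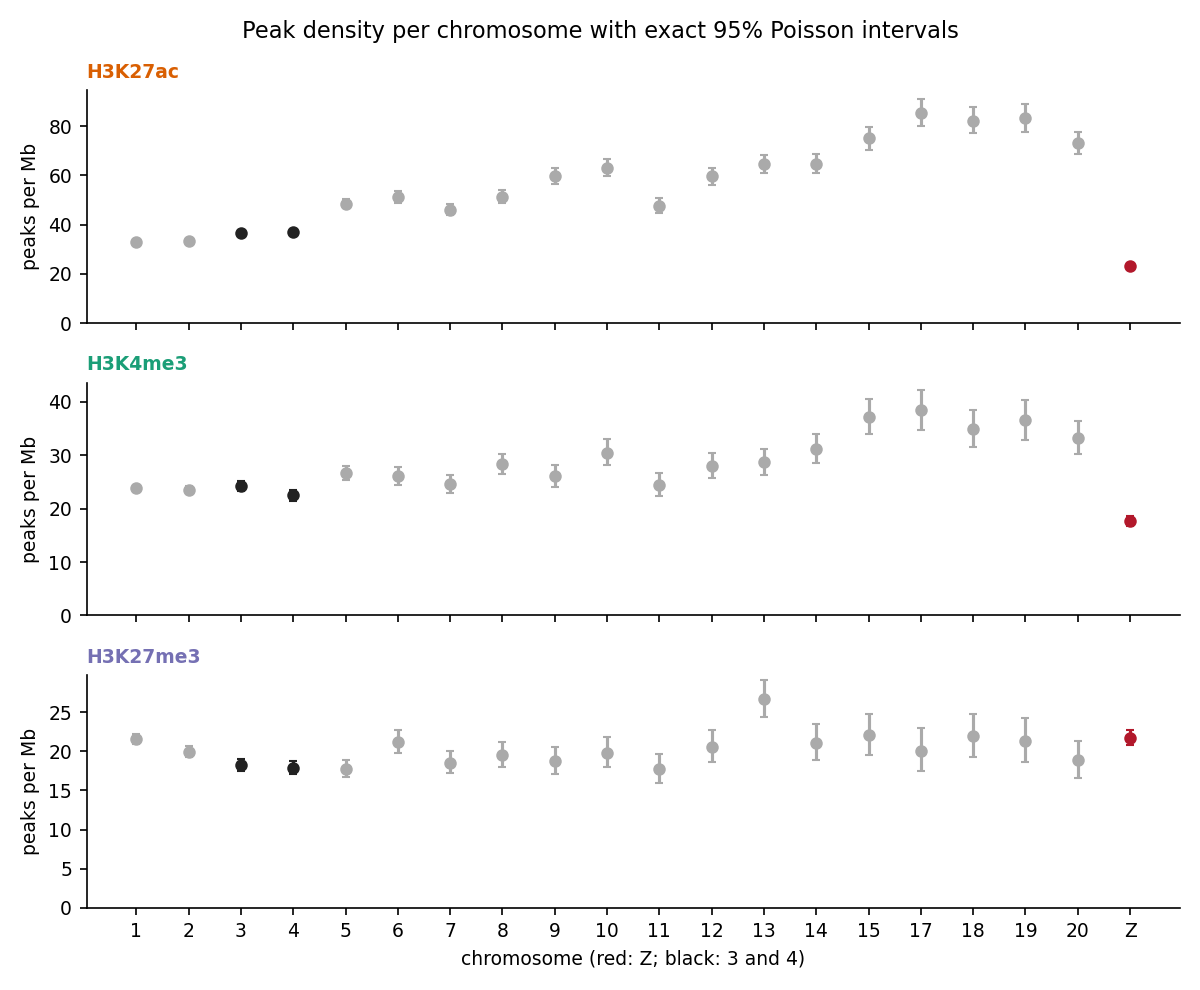
Peaks per Mb for each mark (y axis) on each chromosome with a span of at least 10 Mb (x axis), with exact 95% Poisson intervals as bars. Z, in red at the right, lies below all other chromosomes for H3K27ac (23.4) and H3K4me3 (17.7) and among them for H3K27me3 (21.8); chromosomes 3 and 4 are black.

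The excess of H3K27me3 on Z came from its end. In bins of 1 Mb, to which peaks were assigned by their centre, H3K27me3 had 6 to 34 peaks in each of the first 73 bins of Z. Bins 74 to 79 then held 49, 91, 95, 88, 98 and 92 H3K27me3 peaks. These 6 bins, from 73 to 79 Mb, were singled out after the values had been seen. They contained 513 H3K27me3 peaks, 28.6% of those on Z, at 85.5 per Mb. This was 5.47 times the density before 73 Mb (4.92 to 6.07) and 4.72 times that of chromosomes 3 and 4. The part of repeats and mappability in the counts of these 6 bins was not tested. With everything from 73 Mb onward left out, H3K27me3 on Z fell to 15.6 peaks per Mb, below chromosomes 3 and 4 (ratio 0.864, 0.808 to 0.924). The ratios of the other marks were then 0.695 for H3K27ac and 0.757 for H3K4me3. The H3K27ac ratio thus moved beyond its counting interval but both ratios stayed below 1.

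**Figure D2:**
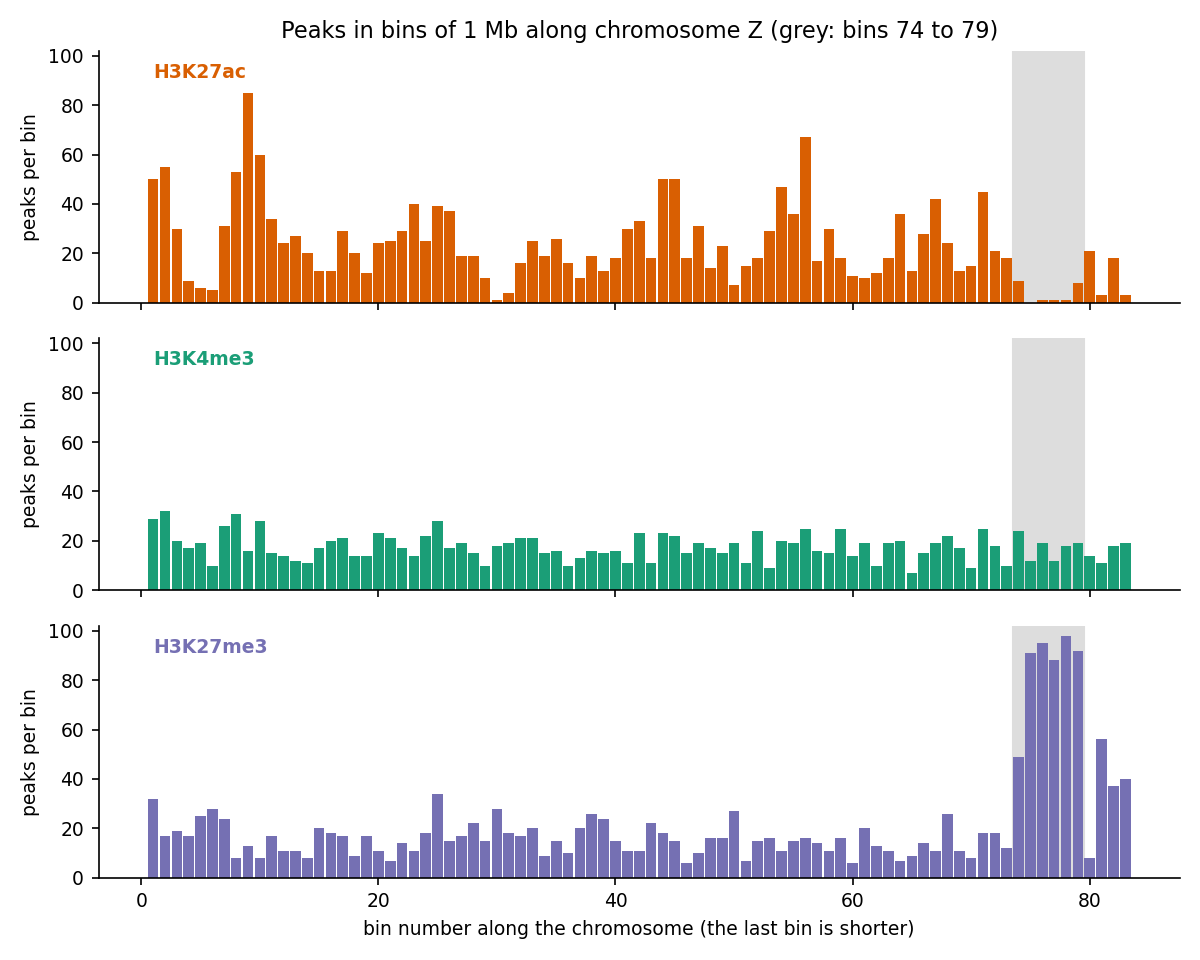
Number of peaks (y axis, the same scale in each panel) in each 1 Mb bin along Z (x axis, bin number) for H3K27ac, H3K4me3 and H3K27me3, with bins 74 to 79 shaded. H3K27me3 rises to 88 to 98 peaks in bins 75 to 79 while H3K27ac falls to 0 to 8, and H3K4me3 stays between 7 and 32 in all full bins.

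Within the same 6 bins H3K27ac was nearly absent, with 9, 0, 1, 1, 1 and 8 peaks. Their sum of 20 peaks, 3.33 per Mb, was 0.130 times the density before 73 Mb (0.0794 to 0.202). Bin 75 was the only bin of Z without any H3K27ac peak. H3K4me3 did not share in either change: its 24, 12, 19, 12, 18 and 19 peaks gave 17.3 per Mb, 0.977 times the density before 73 Mb (0.792 to 1.19). H3K27me3 thus outnumbered H3K4me3 in each of the 6 bins, while before 73 Mb there were 0.882 H3K27me3 peaks per H3K4me3 peak.

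The few H3K27ac peaks of the stretch lay mostly near its borders. Of the 20 H3K27ac peaks, 9 lay at or before position 73505216 and 8 at or after 78740123. The 5.23 Mb between them held, as whole peaks, 3 H3K27ac peaks, 79 H3K4me3 peaks and 484 H3K27me3 peaks. The 3 H3K27ac peaks, at 75489357–75490326, 76496697–76497245 and 77724775–77725546, had fold enrichments of 2.68, 2.57 and 2.43, and −log10 q-values of 1.86, 1.32 and 1.34. None of them passed a q-value of 0.01, and with peaks of that q-value alone the whole 5235 kb carried no H3K27ac.

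H3K27me3 filled this stretch in many separate peaks rather than in a few wide ones. Each of its 60 bins of 100 kb held at least 1 H3K27me3 peak, with a median of 8.5 and a highest count of 18, whereas 49 of the 60 held no H3K27ac peak. Bins of 100 kb were not counted elsewhere, so no share over other sequence can be set beside these counts. Stretches of at least 100 kb without H3K27ac also occurred on chromosomes 3 and 4, at 1.71 and 1.97 per Mb. The median distance between the centres of neighbouring H3K27me3 peaks was 6.75 kb, against 37.8 kb on Z before 73 Mb and 34.6 and 33.9 kb on chromosomes 3 and 4. The peaks were also wider, with a median of 653 bp (553 to 730) against 409.5 bp (380 to 437) before 73 Mb, but only 2 of the 513 reached 5 kb. Before 73 Mb 9 of 1142 H3K27me3 peaks reached this width, and over all sequences 272 of 23067. They covered 7.71% of the stretch, compared with 1.06% of Z before 73 Mb, 1.30% of chromosome 3 and 1.26% of chromosome 4. When H3K27me3 peaks within 3 kb of each other were joined, 8 runs of at least 10 kb lay between 73 and 79 Mb, 1.33 per Mb, against 5 on the remainder of Z before it, 0.0685 per Mb. Chromosomes 3 and 4 had 14 and 11 such runs, 0.126 and 0.120 per Mb. The longest run between 73 and 79 Mb extended over 28.4 kb at 78497455–78525836. Runs of like length occurred elsewhere, up to 28.0 kb on Z before 73 Mb, 33.5 kb on chromosome 3 and 30.4 kb on chromosome 4.

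More of these peaks passed a strict q-value, while their fold enrichment was ordinary. At a q-value of 0.01 or less, 53.7% of the H3K27me3 peaks on Z remained, against 50.7% over all sequences. Between 73 and 79 Mb 334 of the 513 remained, 65.1% (60.8 to 69.2%), against 46.6% before 73 Mb, which gave 55.7 and 7.29 peaks per Mb. At a fold enrichment of 4 or more, 46 of the 513 were left (8.97%, 6.64 to 11.8%), against 7.62% before 73 Mb and 10.2% over all sequences. The density of these strong peaks was 7.67 per Mb inside the stretch and 1.19 before it. They are part of the peaks by which the stretch was singled out, so this contrast is no separate support for it.

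Bin 80 ended the stretch. It held 21 H3K27ac, 14 H3K4me3 and 8 H3K27me3 peaks, values like those before 73 Mb. From 80 Mb to the end of the chromosome, H3K27me3 was again frequent with 133 peaks (52.6 per Mb), beside 24 H3K27ac and 48 H3K4me3 peaks. Bin 81 alone held 56 H3K27me3 and 3 H3K27ac peaks. The highest fold enrichments of H3K27me3 on Z lay here, 14.5 at 82012424–82013886 and 14.5 at 82008537–82009364, and each of these peaks overlapped an H3K4me3 peak. All together, 654 H3K27me3 peaks, 36.4% of those on Z, were located from 73 Mb to the end.

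In the genome, bins of this kind were rare but not limited to Z. Of the 1033 full bins on assembled chromosomes, 2.81% held 49 or more H3K27me3 peaks, which is the count of bin 74, and 7 of the 82 full bins of Z did so, against 0 of 110 on chromosome 3 and 1 of 91 on chromosome 4. Bins 75 to 79 of Z had ranks 3 to 7 of all full bins, after bins 1 and 2 of chromosome 27, which held 128 and 122. Bins with 10 or fewer H3K27ac peaks made up 11.3% of all full bins, and 16 of 82 on Z (19.5%), 14 of 110 on chromosome 3 and 10 of 91 on chromosome 4. Both properties together were found in 19 full bins, 1.84%, and 7 of them were the bins 74 to 79 and 81 of Z. The other 12 lay on chromosomes 1, 27, 31 and 33. Both limits were set after the values on Z had been seen.

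**Figure D3:**
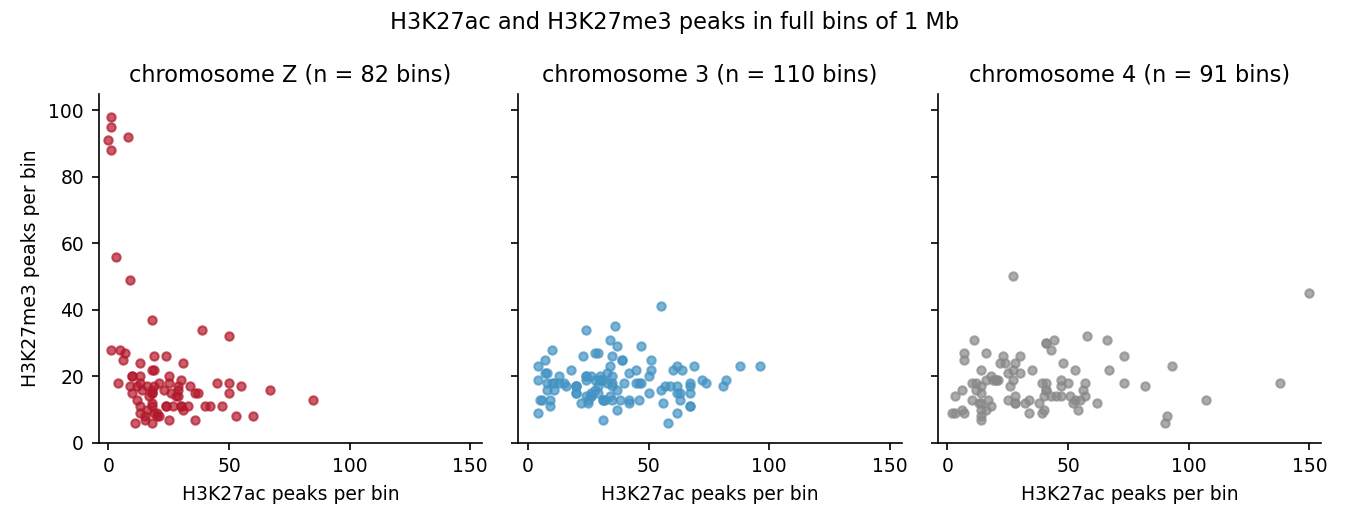
H3K27me3 peaks (y axis) against H3K27ac peaks (x axis) in each full 1 Mb bin of Z, chromosome 3 and chromosome 4, 1 point per bin. On Z 7 bins stand apart at the upper left with 49 or more H3K27me3 and 10 or fewer H3K27ac peaks, and no bin of chromosomes 3 and 4 lies there.

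H3K27ac varied most along the remainder of Z. Counted in segments of 10 Mb, it was densest at the start of the chromosome, with 38.4 peaks per Mb in the first 10 Mb, close to the values of chromosomes 3 and 4. The next 6 segments had 16.6 to 28.8 per Mb. The bins with the most H3K27ac were bin 9 (85 peaks), bin 56 (67), bin 10 (60), bin 2 (55) and bin 8 (53). Bin 9 held 16 H3K4me3 and 13 H3K27me3 peaks, near or below the Z medians of 17 and 16, whereas bins 2, 8 and 10 also ranked among the 5 bins with the most H3K4me3 (32, 31 and 28). The other members of that group were bin 1 with 29 and bin 25 with 28. Bin 25 also had the most H3K27me3 before 73 Mb, 34 peaks, beside 39 H3K27ac peaks.

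Other stretches of Z poor in H3K27ac had moderate counts of H3K27me3, below those of bins 74 to 79 but mostly above the median of 15 per bin before 73 Mb. Bins 4 to 6 held 9, 6 and 5 H3K27ac peaks, and 17, 25 and 28 H3K27me3 peaks. Bins 29 to 31 held 10, 1 and 4 H3K27ac peaks, with 15, 28 and 18 H3K27me3 peaks. Single bins of this kind were 37, 50 and 61, with 10, 7 and 10 H3K27ac peaks and 20 to 27 H3K27me3 peaks. In none of these 9 bins did H3K4me3 fall below 10 peaks. On chromosomes 3 and 4 the longest run of consecutive bins with 10 or fewer H3K27ac peaks was 3 bins, on chromosome 3, against 6 bins at the end of Z.

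H3K4me3 was spread evenly on Z. Its 82 full bins held 7 to 32 peaks with a median of 17, and the variance over the mean, which is 1 for a Poisson distribution, was 1.63, against 2.62 on chromosome 3 and 3.40 on chromosome 4. For H3K27ac this value was 11.1 on Z, 11.96 on chromosome 3 and 20.7 on chromosome 4. For H3K27me3 it was 19.1 on Z and 2.50 before 73 Mb, against 1.81 and 3.34. Counts of H3K27ac and H3K4me3 in the same bins were less closely related on Z than on chromosomes 3 and 4, with Pearson correlations of 0.488 over 82 bins of Z, 0.683 over 110 bins of chromosome 3 and 0.813 over 91 bins of chromosome 4 (Spearman 0.418, 0.720 and 0.806). The H3K4me3 counts of Z were also the closest to Poisson, and how far counting noise lowered its correlation was not tested. H3K27ac and H3K27me3 gave −0.401 on Z, −0.136 over the 73 bins before 73 Mb, 0.028 on chromosome 3 and 0.183 on chromosome 4. These values describe bins of the same 3 libraries, which share base composition and mappability, and neighbouring bins are not independent.

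H3K27ac peaks on Z were narrower than on the autosomes, and H3K27me3 peaks were wider only at the chromosome end. The median H3K27ac width was 611 bp on Z (569 to 651), 683 bp on chromosome 3 (655 to 713) and 746 bp on chromosome 4 (711 to 778). For H3K4me3 the medians were 387 bp on Z (368 to 408), 416.5 bp on chromosome 3 (401 to 440) and 419 bp on chromosome 4 (400 to 444), and the interval of Z overlapped both others. The H3K27me3 median was 459.5 bp on Z and 409.5 bp before 73 Mb, against 421 and 433 bp. Z was covered to 2.01% by H3K27ac against 3.36% and 3.77% on chromosomes 3 and 4, and 1.03% by H3K4me3 against 1.504% and 1.37%. H3K27me3 covered more of Z, 1.64% against 1.30% and 1.26%.

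The 5 widest peaks of each mark all lay before 73 Mb. Of the 1932 H3K27ac peaks on Z 10 reached 5 kb, as did 20 of 4049 on chromosome 3 and 38 of 3387 on chromosome 4. Over all sequences 561 of 45426 did so. The widest, 11251 bp at 615246–626496, overlapped neither other mark. It was followed by 43691665–43700393 (8729 bp, with 2 H3K4me3 peaks) and 70826123–70833699 (7577 bp, with none). The next were 70926699–70934215 (7517 bp) and 1257928–1264837 (6910 bp), each with 1 H3K4me3 peak. None of these 5 overlapped H3K27me3. The widest H3K4me3 peak, 4347 bp at 1717374–1721720, lay inside the third widest H3K27me3 peak, 8702 bp at 1715742–1724443, and overlapped no H3K27ac. The next widest H3K4me3 peaks were 58599591–58603776 (4186 bp, with 1 H3K27ac and 2 H3K27me3 peaks) and 55542590–55546146 (3557 bp, with 1 H3K27ac peak). They were followed by 24269443–24272669 (3227 bp, with neither other mark) and 11563854–11566904 (3051 bp, with 1 H3K27ac peak).

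The widest H3K27me3 peak of Z covered 19948 bp at 58559213–58579160, with a fold enrichment of 6.13. It overlapped 5 H3K4me3 and 2 H3K27ac peaks and was also the widest merged region of Z with all 3 marks. A further H3K27me3 peak of 6569 bp, the fifth widest, lay just beyond it at 58580608–58587176 and overlapped 3 H3K4me3 peaks. The second widest region with all 3 marks followed in the same neighbourhood at 58596998–58603776 (6779 bp). The remaining wide H3K27me3 peaks were 60665100–60674538 (9439 bp) and 913237–920755 (7519 bp), each with 1 H3K4me3 peak and no H3K27ac.

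Among the peaks of highest fold enrichment, several were narrow and several overlapped a peak of another mark. The strongest H3K4me3 peak of Z, 70936784–70938206 with a fold enrichment of 8.49, had nearly the same borders as the second strongest H3K27ac peak, 70936840–70938196 with 7.04. The strongest H3K27ac peak reached 7.07 but was 261 bp wide, at 17465692–17465952, and overlapped no other mark. It was followed by 46064688–46065990 (6.38, with an H3K4me3 peak), 43349649–43350010 (5.78, with an H3K4me3 peak) and 69039844–69040172 (5.71). For H3K4me3 the next were 40022054–40022291 (7.24), 37733343–37733642 (6.49), 44629472–44631659 (6.003) and 48132038–48132267 (5.95), and all but the peak at 44629472–44631659 were at most 300 bp wide. For H3K27me3 the peaks after the pair near the end were 78857583–78857912 (11.95), 24763654–24764033 (9.48) and 74689829–74690148 (7.89), none of which overlapped another mark.

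Although Z had fewer H3K27ac peaks, those called had a higher fold enrichment. The median was 2.76 on Z, 2.66 on chromosome 3 and 2.65 on chromosome 4, and 4.66% of the H3K27ac peaks on Z (3.76 to 5.70%) reached a fold enrichment of 4, against 3.06% and 2.95% on chromosomes 3 and 4 and 3.07% over all sequences. The difference held at equal q-value: among peaks with a −log10 q-value of 1.5 to 2, the median fold enrichment was 2.65 on Z (2.63 to 2.66), 2.56 on chromosome 3 (2.54 to 2.57) and 2.55 on chromosome 4 (2.53 to 2.57). Above a −log10 q-value of 4 it was 3.85 (3.78 to 3.92), 3.67 (3.62 to 3.71) and 3.60 (3.52 to 3.66). H3K4me3 went the same way in the band of 1.5 to 2. Its medians were 3.05 on Z (3.02 to 3.06), 2.98 (2.95 to 3.002) and 2.99 (2.96 to 3.02). For H3K27me3 they were 2.87 (2.85 to 2.90), 2.84 (2.83 to 2.86) and 2.85 (2.82 to 2.88), and the intervals overlapped. Above 4 the intervals of Z overlapped those of both autosomes for H3K4me3 and H3K27me3. The density of H3K27ac peaks with a fold enrichment of 4 or more was 1.09 per Mb on Z, 1.12 on chromosome 3 and 1.10 on chromosome 4, with 90 such peaks on Z. Fold enrichment of H3K27ac ran higher on Z at equal q-value. Neither a limit on fold nor one on q-value therefore selects like peaks on these chromosomes. At a q-value of 0.01 or less the densities of H3K27ac were 12.6, 19.1 and 18.9 per Mb, a ratio of 0.660, close to that of all peaks. All peaks had themselves been called by q-value, so this ratio cannot show whether like peaks were fewer on Z. The part of the number of Z copies in these values was not tested. For H3K4me3, 8.62% of peaks on Z reached a fold of 4 (7.23 to 10.2%), against 7.68% over all sequences. For H3K27me3 the share was lower on Z, 8.35% (7.11 to 9.73%), against 10.2% over all sequences. At a q-value of 0.01 or less, 53.6% of the H3K27ac peaks and 37.8% of the H3K4me3 peaks on Z remained, against 54% and 43% over all sequences.

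Over the whole of Z, H3K27me3 peaks overlapped both other marks in smaller shares than on chromosomes 3 and 4, but before 73 Mb the intervals overlapped those of chromosome 4. An overlap of at least 1 bp was counted. Among H3K27ac peaks on Z, 20.2% overlapped H3K4me3 (18.4 to 22.0%), against 21.1% over all sequences, and 9.68% overlapped H3K27me3 (8.40 to 11.1%), against 9.38%. The intervals of both shares overlapped those of chromosomes 3 and 4. Of the H3K4me3 peaks, 27.04% overlapped H3K27ac (24.8 to 29.4%), against 35.4% over all sequences, 30.3% on chromosome 3 and 33.7% on chromosome 4. Before 73 Mb the share was 29.1% (26.6 to 31.7%), which overlapped the interval of chromosome 3 (28.6 to 32.1%). H3K27me3 peaks overlapped H3K27ac in 10.4% on Z (9.04 to 11.9%), against 18.5% over all sequences, and in 15.8% before 73 Mb (13.7 to 18.0%), against 21.1% (19.3 to 23.0%) on chromosome 3 and 19.1% (17.3 to 21.1%) on chromosome 4. They overlapped H3K4me3 in 17.1% (15.4 to 18.9%), against 24.5% over all sequences, 24.3% on chromosome 3 and 21.5% (19.5 to 23.5%) on chromosome 4, and in 18.8% before 73 Mb (16.6 to 21.2%).

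At the chromosome end most H3K4me3 peaks overlapped H3K27me3, while most H3K27me3 peaks did not overlap H3K4me3. Over the whole of Z, 22.0% of H3K4me3 peaks overlapped H3K27me3 (19.9 to 24.3%), against 22% over all sequences. Before 73 Mb the share was 17.5% (15.5 to 19.7%). Between 73 and 79 Mb, 68 of the 104 H3K4me3 peaks did so, 65.4% (55.4 to 74.4%), and 6 overlapped H3K27ac. From 80 Mb to the end the share was 54.2% of 48. In the other direction, 65 of the 513 H3K27me3 peaks between 73 and 79 Mb overlapped H3K4me3, 12.7% (9.92 to 15.9%). This share was 18.8% (16.6 to 21.2%) before 73 Mb, 19.5% from 80 Mb to the end and 24.5% over all sequences. H3K27me3 also covered more of the stretch from 73 to 79 Mb, 7.71% against 1.06% before 73 Mb. The overlap that this coverage alone would give was not tested. The H3K4me3 peaks between 73 and 79 Mb that overlapped H3K27me3 had a median width of 415 bp (320 to 697). The other 36 had 264.5 bp (245 to 391), and the intervals overlapped. H3K27me3 peaks that overlapped H3K4me3 had a median of 1097 bp (852 to 1265), against 570.5 bp (480 to 668) for the others. Before 73 Mb the same pair of medians was 530 and 387 bp. It was 663 and 387 bp on chromosome 3, and 637 and 409 bp on chromosome 4. A wider peak has more room to overlap another by 1 bp, and the part of this in the width differences was not tested.

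When all peaks of the 3 marks that overlapped were merged, Z had 4348 regions. H3K27ac alone made up 32.7% (31.3 to 34.1%), H3K27me3 alone 31.4% (30.0 to 32.8%) and H3K4me3 alone 18.6%. H3K27ac with H3K4me3 was found in 7.45%, H3K4me3 with H3K27me3 in 5.57% and H3K27ac with H3K27me3 in 2.81%. All 3 marks met in 64 regions, 1.47% (1.14 to 1.88%), against 2.34% (2.002 to 2.72%) on chromosome 3 and 2.10% (1.74 to 2.50%) on chromosome 4. Before 73 Mb the share was 1.76% (1.35 to 2.24%), whose interval overlapped both. After the pair described above, the widest of these were 26021174–26025964 (4791 bp), 55671877–55674794 (2918 bp) and 972875–975679 (2805 bp). On chromosomes 3 and 4, H3K27me3 alone made up 17.7% and 18.6% of regions, and on Z before 73 Mb 22.6% (21.3 to 24.0%). Between 73 and 79 Mb it made up 79.4% of 559 regions (75.8 to 82.7%), and H3K4me3 with H3K27me3 11.4%, while all 3 marks met in 1 region.

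**Figure D4:**
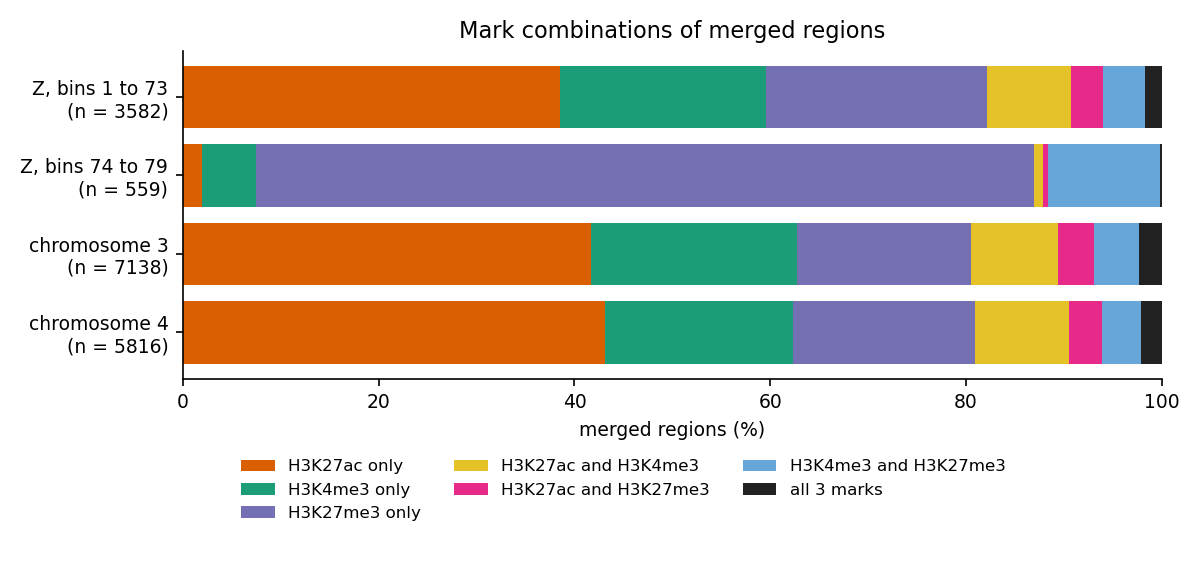
Share of merged regions (x axis, percent) with each combination of marks on Z in bins 1 to 73, on Z in bins 74 to 79, and on chromosomes 3 and 4 (rows, with the number of regions). H3K27me3 alone takes 79.4% of regions in bins 74 to 79, against 22.6% in bins 1 to 73, 17.7% on chromosome 3 and 18.6% on chromosome 4.

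Stretches without any mark on Z were at most 216 kb long. The longest stretches without a peak of any of the 3 marks were 216 kb at 56897600–57113483, 200 kb at 61002326–61202141, 193 kb at 59068281–59261699, 192 kb at 59654846–59846971 and 168 kb at 45207018–45375106. The longest on chromosomes 3 and 4 were 501 kb and 521 kb, but these were single stretches, and the second longest were 212 kb and 222 kb. Gaps in the assembly were not looked up, so they cannot be told apart from stretches without peaks. The median stretch was longer on Z, 10.4 kb against 8.35 and 7.82 kb, and stretches of at least 100 kb numbered 0.594 per Mb on Z, 0.397 on chromosome 3 and 0.602 on chromosome 4. Of the 5 stretches on Z, 4 lay within bins 57 to 62. For single marks, the longest stretch of Z without H3K4me3 was 434 kb (531 kb on chromosome 3, 698 kb on chromosome 4) and without H3K27me3 475 kb (501 and 521 kb). In sum, however, stretches of at least 250 kb took up more of Z, 10.2% against 3.29% and 8.39% for H3K4me3 and 16.1% against 9.50% and 11.6% for H3K27me3.

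For H3K27ac the longest stretches of Z were longer than those of both autosomes. The longest stretch of Z without an H3K27ac peak extended over 1984 kb at 73505217–75489356 and held 29 H3K4me3 and 178 H3K27me3 peaks. The next 3 also lay at the chromosome end: 1228 kb at 76497246–77724774, 1015 kb at 77725547–78740122 and 1006 kb at 75490327–76496696. The fifth, 921 kb at 28685004–29606469, held 15 H3K4me3 and 22 H3K27me3 peaks, and a stretch of 846 kb followed directly after a single H3K27ac peak. On chromosomes 3 and 4 the longest were 732 kb and 828 kb. Over all sequences there were 10 stretches of at least 1 Mb without H3K27ac, 4 of them on Z, and the longest of Z was second to 2177 kb on chromosome 31. Stretches of at least 250 kb without H3K27ac took up 20.7% of Z, 11.5% of chromosome 3 and 14.0% of chromosome 4. The share of Z includes the 4 stretches at the chromosome end and was not computed without them.

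**Figure D5:**
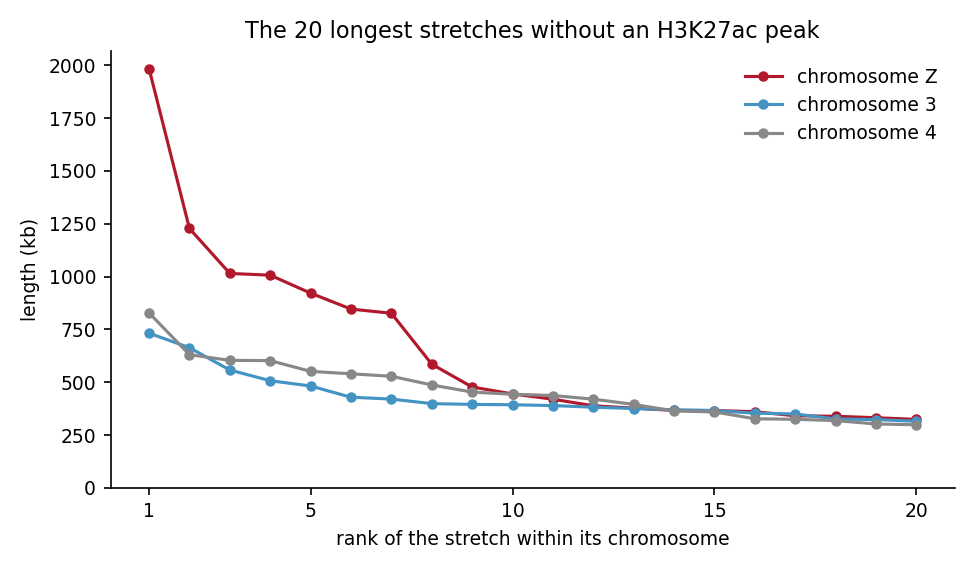
Length in kb (y axis) of the 20 longest stretches without an H3K27ac peak on Z, chromosome 3 and chromosome 4, by rank within the chromosome (x axis). The 4 longest on Z exceed 1000 kb, while the longest on chromosomes 3 and 4 are 732 kb and 828 kb.

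Dense stretches were formed by joining neighbouring peaks of any mark across gaps up to a fixed joining distance, and had at least 10 peaks. Z had 43 of them, 0.521 per Mb (0.377 to 0.702), against 141 (1.27 per Mb) on chromosome 3 and 119 (1.30 per Mb) on chromosome 4. They contained 12.4% of the peaks on Z, 24.1% of those on chromosome 3 and 29.1% of those on chromosome 4. H3K27me3 was the most frequent mark in 23 of the 43 on Z, against 12 and 16 on the autosomes. H3K27ac was missing from 15 of the 43, against 2 and 2, and 14 of the 43 lay between 73 and 79 Mb.

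The 5 dense stretches with the most peaks on Z were of different kinds. That at 7891284–7994329 held 19 H3K27ac and 9 H3K4me3 peaks, and that at 70785175–70910668 held 20 and 5, with H3K27ac over 28.6% of its length, and neither had an H3K27me3 peak. The second of them ended shortly before the strongest H3K4me3 peak described above, which nearly matched the second strongest H3K27ac peak. The stretch at 58555791–58615481 contained the widest H3K27me3 peak and held 5 H3K27ac, 12 H3K4me3 and 7 H3K27me3 peaks, with H3K27me3 over 54.6% of its length. At 999294–1088476 the stretch was mixed, with 11 H3K27ac, 6 H3K4me3 and 4 H3K27me3 peaks. The stretch at 77487629–77583097, within the chromosome end, held 18 H3K27me3 and 3 H3K4me3 peaks and no H3K27ac.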

How the data were processed

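ChIP-seq of OEP ectoderm was carried out by the authors for H3K27ac, H3K4me3 and H3K27me3. Per the study's methods and labels, reads were trimmed with Trim Galore, aligned to GalGal6 with BWA in the NF-core ChIP-seq pipeline, and broad peaks were called with MACS2 at a false discovery rate below 0.1. Whether peaks were called on merged libraries and whether the input served as control were not given in the sources used here. The deposited lists give for each peak a score, which was not used, a fold enrichment, which is a linear ratio over local background, and the −log10 of its p-value and q-value. They hold no read counts, so the depth is unknown, and numbers of peaks were not compared between marks as amounts of a mark.

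Peaks on Z, 3 and 4 were taken by sequence name. Positions are 1-based. Shares have Clopper-Pearson, densities Poisson, density ratios conditional binomial and medians order-statistic 95% intervals (Python 3.11.15, scipy 1.17.1). The functions for overlaps, stretches without peaks, joined peaks and empty bins were checked on simulated peaks, and the 95% intervals were not. No test was made, because each mark has 1 library. Peaks up to 12.5 kb apart were joined into stretches. The peaks and stretches named are the 5 widest, strongest, longest or densest of each kind. Alternatives were a q-value of 0.01 or less, a fold enrichment of 4 or more, other comparison autosomes, merging, covered length, a stricter overlap, equal list sizes, shifted bins and a shorter joining distance. The members, lists and limits were chosen with earlier results of these data known. RefSeq names from GRCg7b served as background only, and no coordinate of that build was used.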

Additional observations from a re-analysis of the deposited data

How the results depend on the processing

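Of 98 alternative values for 26 results, 37 stayed within the counting interval of the value reported (or within 1.5 times it, for counts and lengths), 60 moved beyond it and 1 reversed. Only a density ratio could reverse, by passing to the other side of 1. The other results are values of Z alone, for which no reversal was defined, so their direction against the autosomes was not checked by these labels. No paired analysis was possible because each mark has 1 library and no replicate. Without Z from 73 Mb to its end, an alternative chosen after the data had been seen, the density ratio of H3K27me3 reversed to 0.864 and that of H3K27ac was 0.695. The H3K27me3 median width was then 409.5 bp and its median fold enrichment 2.91. The overlap of H3K4me3 with H3K27me3 was 17.5% and of H3K27me3 with H3K27ac 15.8%, H3K27me3 alone made up 22.6% of regions, the longest stretch without H3K27ac was 921 kb and 25 dense stretches remained. The construction of this alternative, which removes that stretch, accounts for these moves. A stricter q-value or fold enrichment only removes peaks, so bins without peaks cannot become fewer and stretches without peaks cannot become shorter. Likewise a stricter overlap can only lower a share, and a shorter joining distance can only split stretches. For the remaining moves the cause was not tested.

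At a fold enrichment of 4 or more, few peaks were left and the density ratios became 0.984 for H3K27ac, 0.892 for H3K4me3 and 1.48 for H3K27me3. The median widths were 361.5 bp for H3K4me3 and 409 bp for H3K27me3. H3K27ac overlapped H3K4me3 in 25.6% and H3K27me3 in 2.22%, H3K4me3 overlapped H3K27ac in 18.3% and H3K27me3 in 13.5%, and H3K27me3 overlapped H3K27ac in 1.33% and H3K4me3 in 10.7%. Bins without peaks numbered 32 for H3K27ac, 19 for H3K4me3, 33 for H3K27me3 and 3 for any mark. The longest stretches without peaks were 8097 kb for H3K27ac, 3718 kb for H3K4me3, 6977 kb for H3K27me3 and 2248 kb for any mark, and 0 dense stretches remained. At a q-value of 0.01 or less the H3K27me3 density ratio was 1.505 and the H3K4me3 median width 354.5 bp. H3K27ac then overlapped H3K4me3 in 16.7% and H3K27me3 in 6.27%, H3K4me3 overlapped H3K27ac in 31.5%, and H3K27me3 overlapped H3K27ac in 6.85% and H3K4me3 in 11.2%. H3K27ac was missing from 5 bins, the longest stretches were 5235 kb without H3K27ac, 1200 kb without H3K4me3, 948 kb without H3K27me3 and 525 kb without any mark, and 11 dense stretches remained. Median fold enrichments were 3.09 for H3K27ac, 3.53 for H3K4me3 and 3.27 for H3K27me3, H3K27me3 alone made up 36.3% of regions and all 3 marks 0.543%.

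Counted as covered base pairs, the density ratios were 0.567 for H3K27ac, 0.711 for H3K4me3 and 1.28 for H3K27me3, and against all autosomes of 50 Mb or more the H3K27me3 ratio was 1.11. Where 50% of the shorter peak had to be shared, H3K27ac overlapped H3K4me3 in 17.9%, H3K4me3 overlapped H3K27ac in 23.8% and H3K27me3 in 19.2%, and H3K27me3 overlapped H3K4me3 in 14.9%. With the same number of peaks per mark, H3K27ac overlapped H3K4me3 in 23.4%, H3K4me3 overlapped H3K27ac in 21.0%, and H3K27me3 overlapped H3K27ac in 6.35% and H3K4me3 in 14.6%. Bins shifted by 0.5 Mb left 2 without H3K27ac, and a joining distance of 5 kb gave 5 dense stretches. The unknown depth of each library limits how far an absent peak can be read as an absent mark.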
